A study of Mus musculus with 6 samples.

Results

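The genes described here are the mouse zinc finger genes whose symbol is Zfp followed only by a number, with Zfp36, an RNA-binding protein of another zinc finger class, left out. The array carried 304 such genes among 18194 genes that had a probe set annotated to a single gene. For each gene the probe set with the highest mean intensity over the 6 arrays stood for the gene, and 205 genes whose mean reached 60 were kept. The members were thus chosen by mean intensity, so their levels are given as a description. The measurements come from NIH3T3 cells, an established line of mouse embryonic fibroblasts, that contained either wild-type LPAR1 or an LPAR1 mutant and were collected at time points of 0, 60 and 120 minutes. Lysophosphatidic acid, a lipid growth factor found in serum, signals to cells through LPAR1, a receptor that couples to G proteins. Each of the 6 combinations of genotype and time was 1 array, so each time is represented by 2 arrays and each genotype by 3. The labels do not state which mutation was used, how the receptor was brought into the cells, which treatment, if any, began at 0 minutes, or how many clones or cultures the RNA came from. No combination had a second array. The spread behind p-values and SEs is thus how far the time differences of both genotypes depart from each other, pooled in part over genes. It is not a spread between repeated cultures.

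Most numbered Zfp genes encode proteins with tandem C2H2 zinc fingers, in which a zinc ion holds each finger in shape and a few residues of the finger contact DNA bases. Many of them also carry a KRAB domain, which recruits the corepressor Trim28 and, through it, histone methyltransferases that silence retrotransposons and other sequences. Many KRAB zinc finger genes lie in clusters that arose by duplication, and the messenger RNAs of zinc finger transcription factors are often short-lived.

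Intensities are linear values made with the PLIER algorithm, and every difference below is on the log2(intensity + 16) scale. Array medians over all probe sets were between 34.1 and 37.3. Of 12 fibroblast markers, 10 were above the filter at the 40th percentile of gene means (intensity 39.8), with Vim at 11243 and Col1a2 at 10615, while Lum at 12.9 and Postn at 26.5 were below it. Of the defining markers of other cell types, 0 of 4 neuronal, 1 of 4 blood, 1 of 4 endothelial and 4 of 6 epithelial genes were above the filter, among them Krt14 at 1133 and Epcam at 222, whereas Ptprc was at 17.9. The 5' to 3' signal ratio of the actin control, a measure of RNA integrity and labelling, was 0.579 and 0.505 on the arrays at 0 minutes and 0.650 to 0.699 on the 4 later arrays, and the part of this shift in the time differences was not tested. The Gapdh ratio was 0.954 to 1.03.

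The members were mostly weakly expressed. Their mean intensities ran from 60.4 to 4146 with a median of 175, against a median of 376 over all 9859 genes at 60 or more. Just inside the threshold were Zfp748 at 63.0, Zfp113 at 62.2 and Zfp658 at 60.4, and just outside it were Zfp111 at 59.8, Zfp566 at 59.6 and Zfp787 at 59.0. The highest level belonged to Zfp622, a factor of large ribosomal subunit maturation, followed by Zfp281, a transcription factor of pluripotent cells, Zfp871, Zfp207, a microtubule-binding protein of the mitotic spindle, Zfp521, Zfp91, a ubiquitin ligase, Zfp445, a keeper of imprints, and Zfp330. The median member had an intensity of 194, 162 and 160 at 0, 60 and 120 minutes in wild-type cells and of 205, 177 and 156 in mutant cells. All genes at 60 or more had medians of 379, 366 and 365 in wild-type cells and of 383, 382 and 357 in mutant cells.

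The promoters of 5 members are shown because these genes had large differences in the first hour, upwards for Zfp281 and Zfp644 and downwards for Zfp775, Zfp82 and Zfp157. Each line gives the 250 bases before the RefSeq transcription start on GRCm38.p6, from 5′ to 3′ on the gene's strand, and capitals mark every match to a motif searched on both strands. The motifs were the GC box, searched as GGGCGG and bound by Sp1-type factors, and CCAAT, bound by the NF-Y complex. The ETS factor motif was searched as CCGGAAGT, the cyclic AMP response element (CRE) as TGACGTCA, the motif of Fos and Jun dimers (AP-1) as TGANTCA, and the motif of early growth response (EGR) factors as GCGTGGGCG. The CArG box of serum response factor (SRF) was searched as well.
Zfp281 (chr1:136624651-136624900, plus strand): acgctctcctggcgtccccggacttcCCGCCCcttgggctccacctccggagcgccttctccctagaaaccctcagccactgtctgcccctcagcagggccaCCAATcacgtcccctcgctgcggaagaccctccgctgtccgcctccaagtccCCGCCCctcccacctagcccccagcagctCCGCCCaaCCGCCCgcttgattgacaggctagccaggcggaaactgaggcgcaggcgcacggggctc
Zfp644 (chr5:106696831-106697080, minus strand): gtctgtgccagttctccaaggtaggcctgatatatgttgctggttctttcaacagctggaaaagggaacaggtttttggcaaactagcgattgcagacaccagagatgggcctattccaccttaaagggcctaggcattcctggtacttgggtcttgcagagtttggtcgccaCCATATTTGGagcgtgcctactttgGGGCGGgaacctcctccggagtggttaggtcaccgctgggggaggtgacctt
Zfp775 (chr6:48601757-48602006, plus strand): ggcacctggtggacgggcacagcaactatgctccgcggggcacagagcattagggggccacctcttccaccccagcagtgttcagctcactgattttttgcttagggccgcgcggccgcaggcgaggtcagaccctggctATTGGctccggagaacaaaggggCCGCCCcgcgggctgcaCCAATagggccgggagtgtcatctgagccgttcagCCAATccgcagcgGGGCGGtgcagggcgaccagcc
Zfp82 (chr7:30072824-30073073, minus strand): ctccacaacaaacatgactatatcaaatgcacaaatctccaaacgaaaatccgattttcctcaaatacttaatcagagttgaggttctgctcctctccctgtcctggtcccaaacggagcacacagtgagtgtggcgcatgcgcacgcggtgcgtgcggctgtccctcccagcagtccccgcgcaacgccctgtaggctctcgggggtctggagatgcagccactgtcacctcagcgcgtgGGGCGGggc
Zfp157 (chr5:138441226-138441475, plus strand): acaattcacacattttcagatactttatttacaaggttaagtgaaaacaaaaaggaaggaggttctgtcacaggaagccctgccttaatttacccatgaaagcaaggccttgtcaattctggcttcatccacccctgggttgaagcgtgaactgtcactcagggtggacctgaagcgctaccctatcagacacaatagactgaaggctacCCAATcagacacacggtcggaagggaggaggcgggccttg
The Zfp281 stretch held 4 GC boxes and 1 CCAAT, and the Zfp644 stretch, the first of its 2 windows, held 1 GC box and 1 SRF CArG box. The Zfp775 stretch held 2 GC boxes and 3 CCAAT matches, that of Zfp82 1 GC box and that of Zfp157 1 CCAAT. No base lay in more than 1 motif.

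Promoter windows of 300 bases, which add the first transcribed bases, were found for 167 of the 205 members, 207 windows in all. A GC box was present in 52.7% of the members' windows, in 62.2% of the windows of all genes tested and in 35.7% of all windows. CCAAT was present in 46.4%, 37.9% and 37.4% respectively, and the ETS motif in 9.66%, 8.15% and 3.89%. The other motifs were present in few of the members' windows, at 4.83% for AP-1, 2.9% for CRE, 1.45% for the SRF CArG box and 0.483% for EGR, against 5.17%, 3.06%, 1.29% and 1.23% of the windows of all genes tested and 7.81%, 1.79%, 1.63% and 0.612% of all windows. The 68 windows of members that fell at 60 minutes held CCAAT in 52.9% and a GC box in 50%, while the 15 windows of members that rose held them in 20% and 73.3%. The median window held 13 CpG dinucleotides among members that fell at 60 minutes, 23 among those that rose, 16 among all members and 20 among all genes tested. These shares describe letters in the windows and were not tested.

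In the first hour the zinc finger genes moved mainly downwards, in both genotypes. At 60 against 0 minutes, 72 of 205 members (35.1%) fell and 15 (7.32%) rose at a limma adjusted p of at most 0.05, with a median difference of -0.17. Of all genes tested, 10.7% fell and 7.37% rose, with a median of -0.07, and of genes with a mean of at least 60, 11.3% fell and 7.98% rose. Fewer cells with a transcript and less of it per cell cannot be told apart in such bulk RNA. With each array centred on its median, 60 members fell and 18 rose, while the calls over all genes turned from 805 higher and 1173 lower to 1017 higher and 622 lower. Both arrays at 60 minutes were below both arrays at 0 minutes for 106 members (51.7%), against 32.4% of all genes tested, and above them for 21 members (10.2%), against 14.1%. A fall of at least 1.5-fold in each genotype was seen for 24 members (11.7%), against 1.33% of all genes tested, and a rise of that size for 6 (2.93%), against 2.58%.

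**Figure D1:**
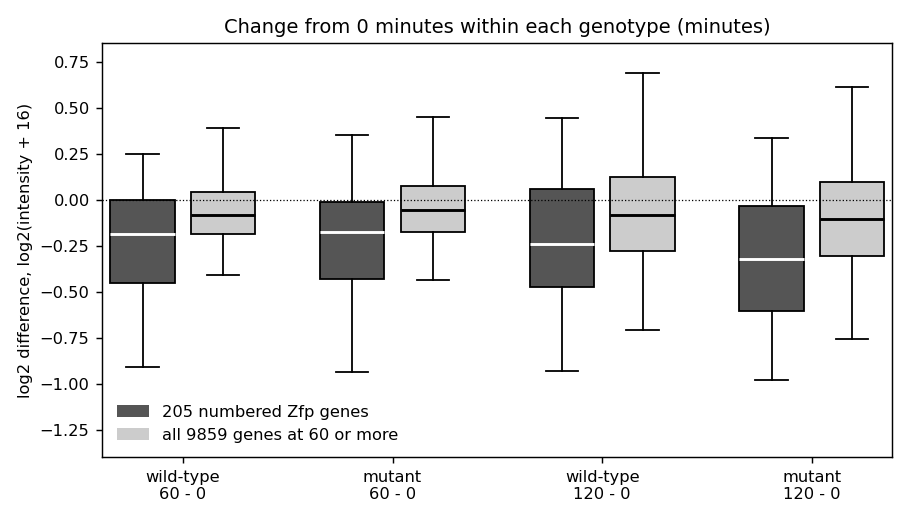
Log2 differences from 0 minutes within each genotype (vertical axis, log2(intensity + 16)) for the 205 members (dark) and all 9859 genes with a mean of at least 60 (light). Lines are medians, boxes the 25th to 75th percentile and whiskers the 5th to 95th percentile, and in each of the 4 array pairs the members' median lies below that of all genes, at -0.18 in both genotypes at 60 minutes.

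Zfp281, which regulates genes of pluripotent and differentiating cells, had intensities of 1240, 2863 and 1363 at 0, 60 and 120 minutes in wild-type cells and of 1260, 2952 and 1283 in mutant cells. Both arrays at 60 minutes stood far above the other 4, which lay within a narrow range. It rose by 1.21 ± 0.057 (log2 difference ± SE, n = 2 arrays per time, limma adjusted p = 3.08e-07) in the first hour and fell by 1.13 ± 0.057 in the second (limma adjusted p = 1.2e-06). Zfp568, a KRAB protein needed in early mouse development that represses a placental Igf2 transcript, had 163, 460 and 285 in wild-type and 179, 431 and 282 in mutant cells. Its difference of 1.31 ± 0.080 at 60 minutes was the largest rise among the members (limma adjusted p = 2.4e-06), and at 120 minutes it was still 0.68 above the start. Zfp644, a partner of the G9a histone methyltransferase complex, had 522, 923 and 571 in wild-type and 535, 1052 and 470 in mutant cells. It rose by 0.88 ± 0.097 (limma adjusted p = 0.000161), and at 120 minutes its difference from the start was -0.03. Zfp800 went from 127 to 233 and 293 in wild-type and from 130 to 244 and 259 in mutant cells, so both times lay above 0 minutes. It rose by 0.81 at 60 and by 1.01 ± 0.088 at 120 minutes (limma adjusted p = 1.21e-05), but its 2 dim probe sets, with mean intensities of 23.3 and 12, had differences of -0.50 and -0.44 at 120 minutes. Zfp948 (0.80), Zfp719 (0.74), Zfp715 (0.59), Zfp131 (0.43), Zfp24 (0.34) and Zfp365 (0.32) were the next largest rises. For Zfp24, 3 other probe sets had differences below 0. Zfp24 and Zfp365 did not pass with the mean of all probe sets.

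Most of the largest falls in the first hour were in weakly expressed members, but the means of Zfp157 (179) and Zfp53 (283) were above the members' median of 175. Zfp775 had 125, 40.6 and 41.0 in wild-type and 171, 45.9 and 43.8 in mutant cells. Both later times lay close together and below the start, and it fell by 1.45 ± 0.12 at 60 minutes (limma adjusted p = 2.32e-05) and by 1.47 at 120 minutes. Zfp40 had 95.6, 29.0 and 68.2 in wild-type and 112, 31.7 and 60.0 in mutant cells, a fall of 1.37 ± 0.12 (limma adjusted p = 4.11e-05). At levels this low the offset matters, and the Zfp40 difference was -1.74 with an offset of 1 and -0.83 with 64. Zfp157 had 275, 106 and 144 in wild-type and 306, 107 and 135 in mutant cells, a fall of 1.32 ± 0.090 (limma adjusted p = 5.54e-06). Zfp82 had 149, 55.0 and 120 in wild-type and 150, 47.3 and 123 in mutant cells, a fall of 1.30 ± 0.10 (limma adjusted p = 1.36e-05) followed by a rise of 1.03 in the second hour. For Zfp40, Zfp157 and Zfp82 both arrays at 60 minutes lay below the other 4. Zfp128 (-1.06), Zfp950 (-1.05), Zfp12 (-1.02), Zfp691 (-1.02), Zfp14 (-1.02) and Zfp53 (-0.96) followed. For Zfp950 other probe sets, with mean intensities of 49.3 and 13.3, had -0.24 and -0.35, and a Zfp128 set at 25.8 had -0.24. Other sets of Zfp53 and Zfp14 had -1.22 and -0.65.

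**Figure D2:**
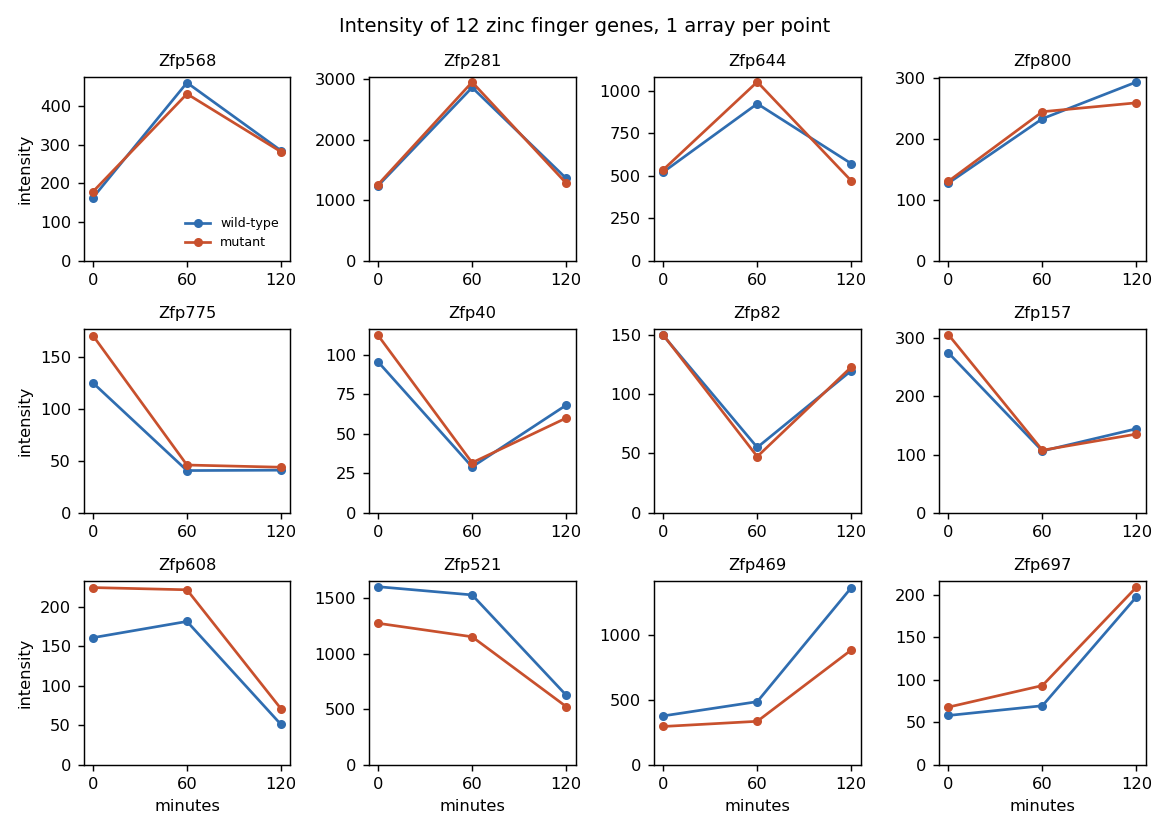
Intensity (vertical axis, linear, from 0) against minutes for 12 members, 1 array per point, wild-type in blue and mutant in red. Zfp281 peaks at 60 minutes at 2863 and 2952, Zfp82 and Zfp40 dip at 60 minutes, Zfp775 stays low from 60 minutes, and Zfp608, Zfp521, Zfp469 and Zfp697 move mainly in the second hour.

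Over the whole 2 hours most members that moved fell. At 120 against 0 minutes, 108 members (52.7%) fell and 18 (8.78%) rose at a limma adjusted p of at most 0.05, with a median of -0.29, whereas of all genes tested 30.8% fell and 16.2% rose, with a median of -0.09, and of genes with a mean of at least 60, 32.6% fell and 17.5% rose. A fall of at least 1.5-fold in each genotype was seen for 29 members (14.1%), against 6.36% of all genes tested, and a rise of that size for 4 (1.95%), against 4.41%. Both arrays at 120 minutes were below both arrays at 0 minutes for 129 members (62.9%), against 42.1% of all genes tested, and above them for 37 (18.0%), against 21.8%. This comparison shares its 0-minute arrays with the comparison at 60 minutes. The summed level of the 6 epithelial markers was 1685 and 1731 at 0 minutes and 1458 and 1405 at 120 minutes in wild-type and mutant cells. Krt14 made up 1267 and 1242 of it at 0 minutes and 1001 and 1029 at 120 minutes. Epcam went from 160 to 277 in wild-type and from 263 to 220 in mutant cells. The part of these markers in the result was not tested.

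Zfp469, whose human counterpart is mutated in brittle cornea syndrome, had 377, 487 and 1369 in wild-type and 295, 335 and 887 in mutant cells. It rose by 1.68 ± 0.078 at 120 minutes (limma adjusted p = 2.01e-07), and both arrays of that time stood above the other 4. Zfp697 had 57.8, 69.2 and 197 in wild-type and 67.6, 93.0 and 209 in mutant cells, a rise of 1.48 ± 0.10 (limma adjusted p = 3.24e-06). Smaller rises were those of Zfp365 (0.58), Zfp948 (0.54), Zfp715 (0.52), Zfp593 (0.45), which takes part in ribosome biogenesis, Zfp719 (0.45) and Zfp770 (0.43).

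Zfp521, a multi-finger regulator that holds back fat-cell differentiation, was among the strongly expressed members, at 1602, 1528 and 626 in wild-type and 1273, 1151 and 523 in mutant cells. Its difference of -0.11 at 60 minutes did not pass, and it fell by 1.30 ± 0.062 at 120 minutes (limma adjusted p = 2.27e-07), and its other probe set had a difference of -1.53. Zfp608 had 161, 181 and 50.8 in wild-type and 224, 221 and 70.7 in mutant cells, a fall of 1.44 ± 0.091 (limma adjusted p = 1.65e-06), with -0.62 on its other probe set. Zfp462, a chromatin-associated protein of stem cells and development, had 581, 620 and 359 in wild-type and 589, 567 and 255 in mutant cells, a fall of 0.91 ± 0.10 (limma adjusted p = 6.93e-05). For these 3 genes both arrays at 120 minutes were below the other 4. Zfp784 (-1.35), Zfp820 (-1.30), Zfp438 (-1.13), Zfp760 (-1.11), Zfp524 (-1.03), Zfp157 (-0.98) and Zfp292 (-0.97) also fell, and the Zfp820 difference ran from -1.60 with an offset of 1 to -0.82 with 64.

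**Figure D3:**
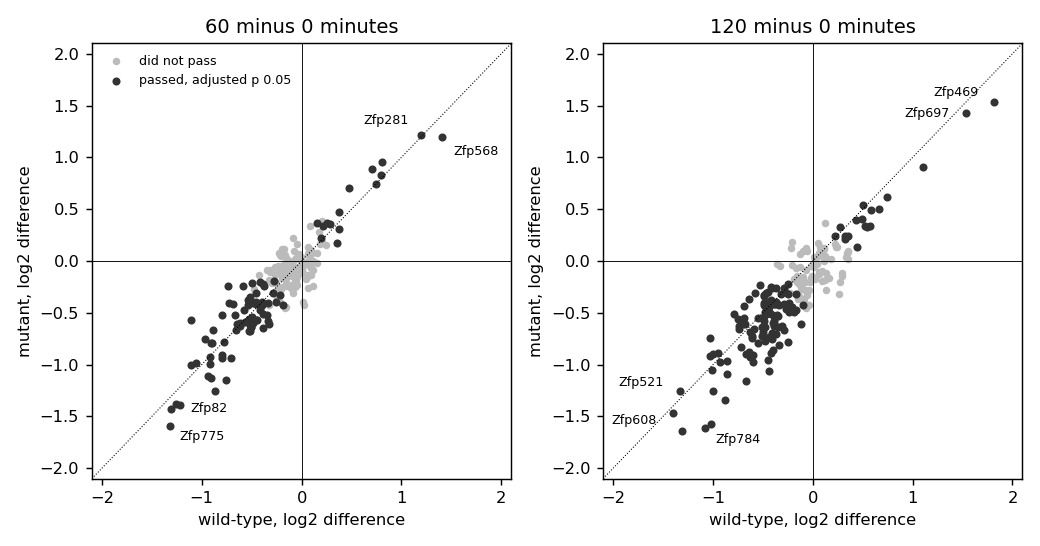
Log2 difference from 0 minutes in mutant cells (vertical axis) against that in wild-type cells (horizontal axis) for the 205 members, at 60 minutes (left) and 120 minutes (right), with members that passed in dark. The points lie along the dotted line of equality, with 72 falls and 15 rises at 60 minutes and 108 falls and 18 rises at 120 minutes.

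In the second hour the members moved in both directions. At 120 against 60 minutes, 36 members (17.6%) rose and 46 (22.4%) fell at a limma adjusted p of at most 0.05, with a median of -0.06, while 10.2% of all genes tested rose and 15% fell, with a median of -0.02, and of genes with a mean of at least 60, 11% rose and 16% fell. A change of at least 1.5-fold in each genotype was a rise for 5 members (2.44%, against 1.69% of all genes tested) and a fall for 10 (4.88%, against 2.89%). Without the wild-type 60-minute array the members' median was -0.08, against -0.04 of all genes tested. Without the mutant one it was -0.02, against -0.01. Each of these fits holds 1 array at 60 minutes. The largest rises were Zfp469 (1.41), Zfp697 (1.18), Zfp82 (1.03), Zfp40 (0.79) and Zfp930 (0.73), and the largest falls were Zfp608 (-1.51), Zfp521 (-1.19), Zfp281 (-1.13), Zfp438 (-1.09) and Zfp820 (-0.99).

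The calls of the 3 time comparisons sorted the members into courses. A fall in the first hour, a rise in the second and a level still below the start was found for 16 members (7.8%), against 0.302% of all genes tested. These were Zfp12, Zfp14, Zfp40, Zfp53, Zfp61, Zfp82, Zfp128, Zfp157, Zfp563, Zfp658, Zfp691, Zfp763, Zfp932, Zfp950, Zfp952 and Zfp958, with differences of -1.37 to -0.54 at 60 minutes and of -0.98 to -0.27 at 120 minutes. Another 9 members (4.39%, against 0.788%) fell and rose again with no called difference between 120 and 0 minutes, namely Zfp54, Zfp59, Zfp87, Zfp263, Zfp553, Zfp703, Zfp746, Zfp846 and Zfp930. Zfp52 fell by 0.42 and then rose to 0.29 above the start.

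A fall in the first hour that was still present at 120 minutes, with no called difference in the second hour, was the course of 35 members (17.1%, against 5.34%), Zfp775 among them. A further fall in the second hour was called for 11 more (5.37%, against 3.57%), which were Zfp93, Zfp101, Zfp292, Zfp346, Zfp524, Zfp639, Zfp740, Zfp760, Zfp784, Zfp945 and Zfp954. A late fall, called from 60 to 120 minutes and over the whole course but not in the first hour, was found for 26 members (12.7%, against 9.16%), such as Zfp521, Zfp608, Zfp462 and Zfp386. A peak at 60 minutes with a fall afterwards and no called difference at 120 minutes was found for 5 members (2.44%, against 0.724%), which were Zfp24, Zfp281, Zfp628, Zfp644 and Zfp655. For Zfp655 another probe set, with a mean intensity of 188, had differences of 0.37 at 60 and 0.63 at 120 minutes. A further set, at 172, had 0.26 and 0.04. Zfp568, Zfp719 and Zfp948 (1.46%, against 0.815%) also peaked but were still above the start at 120 minutes. No comparison was called for 60 members (29.3%, against 49.3% of all genes tested).

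The calls were also counted below and above the members' median level of 175. Of the 102 below it, 1 (0.98%) rose and 47 (46.1%) fell at 60 minutes, against 3.58% and 13.0% of all genes in the same range of levels. Of the 103 at or above it, 14 (13.6%) rose and 25 (24.3%) fell, against 9.55% and 10.7% of all genes in that range. In the second hour 24 of the weaker members (23.5%) rose and 12 (11.8%) fell, against 8.13% and 13.5% of all genes in that range. Of the stronger ones 12 (11.7%) rose and 34 (33.0%) fell, against 12.1% and 17.0%. The difference between the level classes was not tested.

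The time differences of both genotypes were set side by side. Across the 205 genes, which are not independent replicates, Pearson's r between the wild-type and mutant differences was 0.916 at 60 against 0 minutes, 0.906 at 120 against 0 and 0.892 at 120 against 60, beside 0.86, 0.911 and 0.785 over all genes tested. The sign was the same for 166 members (81.0%), 181 (88.3%) and 165 (80.5%), against 73.1%, 81.1% and 69.0% of all genes tested. The mutant's difference at 120 minutes was below the wild-type one for 150 members (73.2%), with a median of -0.11, against 57.6% of all genes tested and a median of -0.03. At 60 minutes that median was -0.00. With 1 array per genotype and time these differences of differences have no replicate and no test. Zfp945 (0.50 at 60 and 0.28 at 120 minutes), Zfp384 (0.29 and 0.28), Zfp575 (0.27 and 0.39) and Zfp949 (0.35 and 0.26) had higher mutant than wild-type differences at both times, and were named by the smaller of both values. Zfp763 (-0.39 and -0.37), Zfp775 (-0.27 and -0.33), Zfp266 (-0.24 and -0.51) and Zfp934 (-0.41 and -0.24) had lower ones.

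Genotype differences were fewer and smaller. With time as the pairing, 20 members (9.76%) were higher and 6 (2.93%) lower in mutant than in wild-type cells at a limma adjusted p of at most 0.05, with a median of 0.04, against 10.5% higher and 8.99% lower of all genes tested, with a median of 0.01, and 11.2% higher and 9.4% lower of genes with a mean of at least 60. At least 1.5-fold at all 3 times were 0 members higher, against 0.476% of all genes tested, and 1 lower (0.488%), against 0.724%. The members' share of higher calls was near that of all genes tested, and their share of lower calls was smaller. Higher calls did not outnumber lower calls under every setting. Without the trended prior 6 members were higher and 6 lower (735 and 675 of all genes). Counts were 6 and 7 without either 0-minute array (690 and 679, or 678 and 689, of all genes, for wild-type or mutant). Without either 60-minute array they were 6 and 6 (587 and 797, or 574 and 801). Without either 120-minute array they were 24 and 6 (1308 and 836, or 1304 and 848), and with quantile normalization 28 and 8 (1401 and 1123). Without the pairing by time 0 members passed in limma, and 3 had an unadjusted p under 0.05. The endothelial marker Cdh5 was also higher in mutant cells, by 0.97, and the summed level of the 4 endothelial markers was 51.2 to 65.6 on wild-type and 95 to 111 on mutant arrays, of which Cdh5 made up 22.4 to 27.4 and 61.4 to 64.6. Another of them, Kdr, which was below the filter, was at 19.8, 19.9 and 25.6 in wild-type and at 14.9, 18.0 and 30.8 in mutant cells at 0, 60 and 120 minutes. The epithelial marker Cdh1 was lower in mutant cells, with a difference of -0.49 (limma adjusted p = 0.00282). The other tested epithelial markers, Epcam (0.10), Krt5 (0.06) and Krt14 (0.03), had differences above 0 that did not pass. The part of these markers in the members' differences was not tested. The 3 mutant arrays were all above the 3 wild-type arrays for 4 members (1.95%, against 9.07% of all genes tested) and all below for 6 (2.93%, against 7.69%).

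Zfp53 had 302, 152 and 224 in wild-type and 487, 237 and 294 in mutant cells at 0, 60 and 120 minutes. The mutant was higher at each time although the groups overlapped, with a difference of 0.54 ± 0.072 (n = 3 arrays per genotype, limma adjusted p = 0.000881) and 0.22 on its other probe set. Zfp386 had 369, 334 and 186 in wild-type and 480, 458 and 235 in mutant cells, a difference of 0.37 ± 0.059 (limma adjusted p = 0.00248). Zfp608 (0.36), Zfp639 (0.31), Zfp934 (0.29), Zfp799 (0.27), Zfp950 (0.26), Zfp52 (0.25), Zfp365 (0.25) and Zfp647 (0.25) followed. The Zfp647 call was lost whichever array was left out. Those of Zfp799, Zfp950, Zfp52 and Zfp365 were lost without any array of 0 or 60 minutes. The Zfp934 call was lost without any array of 0 or 120 minutes, and that of Zfp608 without either array of 0 minutes. Zfp367, Zfp938, Zfp292, Zfp267, Zfp931, Zfp622, Zfp664, Zfp277, Zfp207 and Zfp655 had differences of 0.24 to 0.16. For Zfp207 the 5 other probe sets, with mean intensities of 30.2 to 206, all had differences below 0, from -0.31 to -0.12. In the strongly expressed Zfp622 the values were 3784, 4206 and 3606 in wild-type and 4437, 4669 and 4172 in mutant cells, a difference of 0.20 ± 0.039 (limma adjusted p = 0.00745).

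Zfp251 had 141, 108 and 110 in wild-type and 87.5, 62.2 and 66.9 in mutant cells. Its groups did not overlap, as among the called members was also the case for Zfp938, and it was lower in the mutant by 1.5-fold or more at all 3 times, with a difference of -0.62 ± 0.080 (limma adjusted p = 0.000737). Zfp469 was lower in the mutant at each time, by -0.34, -0.52 and -0.62 at 0, 60 and 120 minutes, and by -0.49 ± 0.064 in the fit (limma adjusted p = 0.000804). Zfp703, a repressor of the NET family, had 363, 231 and 449 in wild-type and 287, 184 and 258 in mutant cells, a difference of -0.47 ± 0.090 (limma adjusted p = 0.00674). Zfp14 (-0.48), Zfp319 (-0.34) and Zfp521 (-0.33) were the other members that were lower. With the mean of all probe sets only 8 members were higher and 4 lower. Zfp608, Zfp934, Zfp52, Zfp365, Zfp703 and Zfp319 were among those that no longer passed. The smaller differences, from Zfp367 to Zfp655, were not followed gene by gene under this setting.

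**Figure D4:**
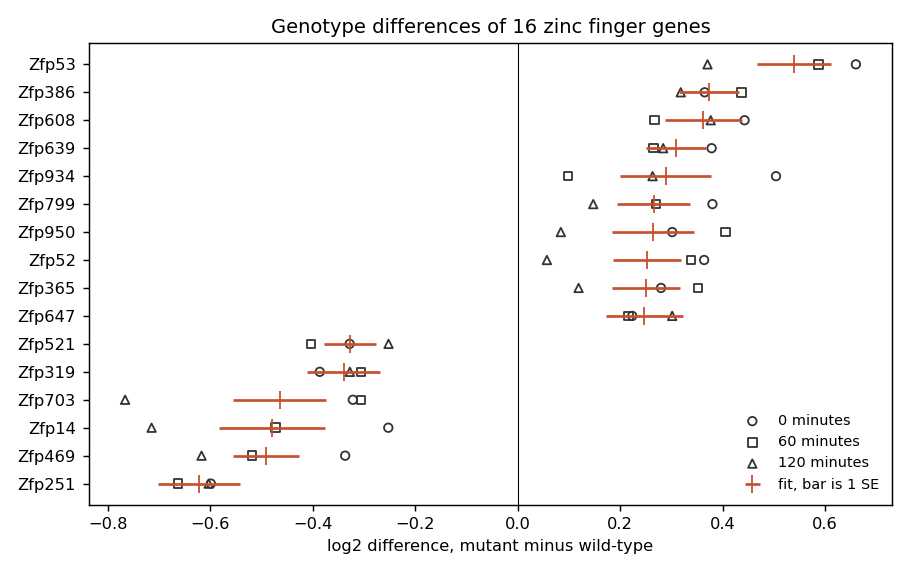
Log2 difference of mutant minus wild-type (horizontal axis) for the 10 members with the largest called rises and all 6 called falls, with open symbols for each time and a red bar for the fitted value ± 1 SE. All symbols of a gene lie on the same side of 0, and Zfp53 at 0.54 and Zfp251 at -0.62 mark the ends.

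The members' roles were spread over these courses. In the list counts that follow, the shares of all genes tested to set beside them are 7.37% higher and 10.7% lower at 60 minutes and 16.2% higher and 30.8% lower at 120 minutes. Of 11 members known for functions outside DNA binding, 0 rose and 2 (18.2%) fell at 60 minutes, and 1 (9.09%) rose and 3 (27.3%) fell at 120 minutes, near the share of all genes. These counts rest on the brightest probe set of each gene. For Zfp451 that set had differences of -0.17 at 60 and -0.03 at 120 minutes. Its sets with mean intensities of 443 and 223 had 0.999 and 0.69 at 60 and 1.05 and 0.92 at 120 minutes. At 60 minutes another Zfp593 set had 0.70, while Zfp207 sets with mean intensities of 206 and 205 had -0.56 and -0.70. These other sets were not tested. Zfp346, which binds double-stranded RNA, fell by 0.51 at 60 and by 0.91 at 120 minutes, Zfp638, an RNA-binding protein, fell by 0.31 and by 0.38, and Zfp207 fell by 0.33 at 120 minutes, while Zfp598, a sensor of collided ribosomes, had a difference of 0.02. Of 9 developmental and fat-cell regulators 6 were members, and 4 of these (66.7%) fell at 120 minutes, namely Zfp521, Zfp462, Zfp219 (-0.45) and Zfp217 (-0.36). Zfp703 fell by 0.61 at 60 minutes, then rose by 0.68. Of 8 factors of imprinting, retroviral silencing and pluripotency 5 were members. Zfp281 and Zfp568 rose at 60 minutes and Zfp932, a repressor of endogenous retroviruses, fell by 0.54. Zfp445 fell by 0.25 at 120 minutes, and Zfp809, which silences murine leukaemia virus, had a difference of -0.14. Of 12 promoter-binding and general transcription factors 9 were counted. Zfp644 rose and Zfp263 fell at 60 minutes. At 120 minutes Zfp532 fell by 0.37 (limma adjusted p = 0.0167), the 1 call of the 9 (11.1%), whereas the differences of Zfp148, a GC-box binding factor, and Zfp410, the activator of Chd4, were -0.09 and -0.18 and did not pass.

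The genes through which KRAB proteins act, and other zinc finger families, give the surroundings. Of 23 tested KRAB corepressor and heterochromatin genes, 0 rose and 1 fell at 60 minutes, and 3 (13.0%) rose and 8 (34.8%) fell at 120 minutes, near the shares of all genes tested. The DNA methyltransferase genes Dnmt3b (0.49) and Dnmt3a (0.26) and Mta2 (0.34), a subunit of the NuRD complex, rose at 120 minutes. Trim28, the corepressor itself, fell by 0.25 at 120 minutes (limma adjusted p = 0.00698) from 1621 and 1608 at the start. Atf7ip, a partner of the methyltransferase Setdb1, fell by 1.30, and Tasor, a subunit of the HUSH silencing complex, by 0.73. Of 11 Zscan and Zkscan genes, whose proteins carry a SCAN domain, 4 fell at 60 minutes and 8 at 120 minutes, with a median of -0.70 at 120 minutes and none higher. Of 25 Zbtb genes, whose proteins carry a BTB domain, 4 rose and 4 fell at 60 minutes and 6 rose and 6 fell at 120 minutes. Of 12 Zc3h genes, which encode CCCH fingers that bind RNA, 1 rose and 1 fell at 60 minutes and 2 rose and 4 fell at 120 minutes. The differences between families were not tested.

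**Figure D5:**
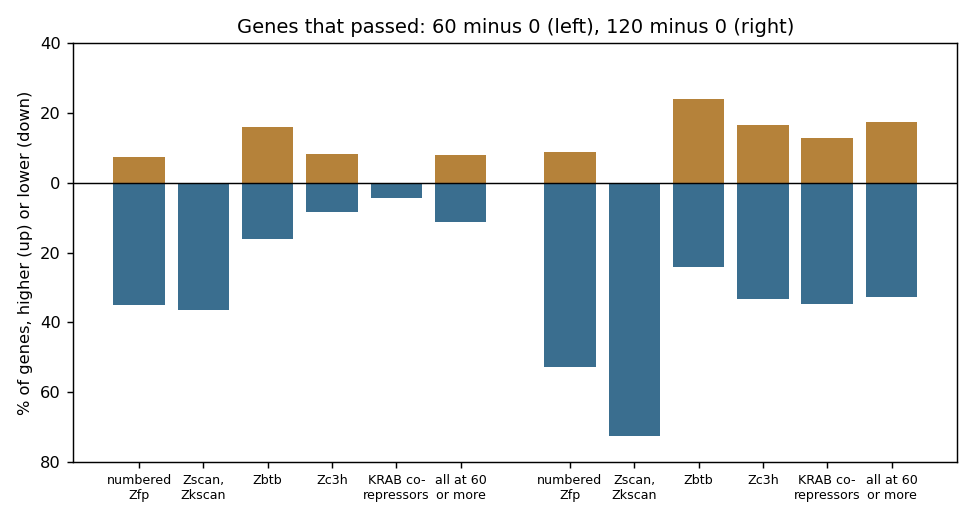
Percentage of genes (vertical axis) that were higher (brown, upwards) or lower (blue, downwards) at 60 minutes (left) and 120 minutes (right) against 0 minutes, for the numbered Zfp genes, other gene lists and all genes with a mean of at least 60. Falls make up 35.1% and 52.7% of the numbered Zfp genes, 36.4% and 72.7% of the Zscan and Zkscan genes and 11.3% and 32.6% of all genes.

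Along the genome, 58 members were next to another member in RefSeq gene order, in 21 runs of up to 6 genes. This split was chosen after the values were seen. At 60 minutes 4 of these 58 (6.9%) rose and 26 (44.8%) fell, while of the other 147 members 11 (7.48%) rose and 46 (31.3%) fell, and of all genes tested 7.37% rose and 10.7% fell. At 120 minutes 5 (8.62%) rose and 34 (58.6%) fell among neighbours and 13 (8.84%) and 74 (50.3%) among the others, against 16.2% and 30.8% of all genes tested. In the second hour 16 (27.6%) rose and 18 (31.0%) fell among neighbours and 20 (13.6%) and 28 (19.0%) among the others, against 10.2% and 15%. The difference between both sets of members was not tested. Neighbours did not always move alike. In the run of Zfp383, Zfp74, Zfp568, Zfp14 and Zfp82 the differences at 60 minutes were -0.47, -0.16, 1.31, -1.02 and -1.30. In the run of Zfp677, Zfp54, Zfp51, Zfp53, Zfp52 and Zfp948 they were -0.51, -0.53, -0.19, -0.96, -0.42 and 0.80. In the run of Zfp472, Zfp952, Zfp763 and Zfp563 they were -0.20, -0.78, -0.95 and -0.82. In the run of Zfp760, Zfp229, Zfp820, Zfp995, Zfp942 and Zfp943 the differences at 120 minutes were -1.11, -0.65, -1.30, -0.51, -0.24 and -0.46. Duplicated genes have similar sequences, so probe sets of close copies may share signal.

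The arrays held 207 further probe sets for 113 of the members. Among those above the filter, the sign was that of the called member for 36 of 41 sets at 60 against 0 minutes, 54 of 56 at 120 against 0, 39 of 46 at 120 against 60 and 15 of 19 for genotype. Over all 105 further sets above the filter, called or not, the sign was shared by 85, 83, 84 and 57 sets in the same order. For genotype it was shared by 107 of all 207 further sets.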

How the data were processed

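RNA of 6 NIH3T3 samples was measured on Affymetrix arrays. The deposited values are linear intensities, made by the authors with PLIER in Affymetrix Power Tools 1.14.3.1, per the submitters' processing notes; background correction and scaling are not given in the sources used here. Of 45101 probe sets, 34958 carried 1 gene symbol and 932 several in the platform annotation. The deposited intensities were taken to log2 after adding 16, and 10916 genes at or above the 40th percentile of mean intensity (39.8) were fitted with limma 3.58.1 in R 4.3.3 on genotype and time, with a trended eBayes prior (2 residual and 7.73 prior degrees of freedom) and Benjamini-Hochberg adjustment over all genes tested. The genotype comparison of the fit was run on simulated data that held no time differences, and the time comparisons were not tested in this way. Time blocks the genotype comparison because arrays share it by design; deviations from the genotype means of arrays of the same time correlated at 0.757 to 0.911 over all genes. The number of arrays limits the precision.

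Named genes were, per comparison, the 10 largest passing rises and 10 largest passing falls that all array pairs shared in sign (5 for 120 against 60 minutes), the 8 highest levels, the 4 genes each way ranked by whichever of their 60- and 120-minute time course differences was nearer 0, and the genes at the threshold. Members on the function lists were added without a limit on their number, and not all of these are described. The members and lists were chosen with earlier results of these data known. The alternatives were the offset, filter, normalization, probe set rule, prior, block and leaving out each array. Promoters and gene order come from RefSeq tables of GRCm38.p6.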

Additional observations from a re-analysis of the deposited data

How the results depend on the processing

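The number of members that passed was 87 for 60 against 0 minutes, 126 for 120 against 0, 82 for 120 against 60 and 26 for genotype. The genotype count was 12 with the mean of all probe sets (8 higher, 4 lower), 12 without the trended prior (6 higher, 6 lower) and 0 without the replicate block, that is without pairing the arrays by time. Leaving out 1 array at a time gave 12 to 30 members for genotype, 61 to 97 for 60 against 0 minutes, 94 to 131 for 120 against 0 and 48 to 81 for 120 against 60. The genotype count was 13 without either 0-minute array and 12 without either 60-minute array. With a filter at the 60th percentile only 103 members were tested, and 39, 65 and 48 passed in the 3 time comparisons. Of the named members' differences, 486 kept their call and 32 lost it over the processing settings, and none changed direction. None changed direction over the left-out arrays either, but this was largely fixed in advance. The named genes were chosen for the same sign in all array pairs, so a genotype difference could not reverse. A time difference keeps its value when an array of the third time is left out. All 16 named genotype calls were lost without the block, and Zfp365 lost its 60-minute call without the wild-type 0-minute array and without the mutant array of either 0 or 60 minutes. The causes were not tested. No group held 4 or more arrays, so outlying arrays were not searched for. Weak signal limits members near 60, whose differences depend on the offset.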
